A study of Homo sapiens with 3 samples.

Results

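The subject is the family of proteasome subunit genes in an eCLIP peak list. eCLIP uses UV light to fix a protein to the RNA it touches, then sequences the RNA that comes down with the protein, and a peak is a stretch where reads pile up. The members were all protein-coding genes of the NCBI RefSeq table (GRCh38.p14) whose symbol is PSMA to PSMG followed by a number, which gave 48 genes out of 20037 coding genes. A peak counted for a gene when its centre lay in the span of the gene, and 93 of the 21031 peaks of the list did so. The study put HA-tagged mouse Pxr (the pregnane X receptor) for 24 h into LS174T, a line from a human colon adenocarcinoma, and irradiated the cells at 254 nm with 400 mJ/cm2. The groups were 2 replicates of the PXR immunoprecipitate and 1 input library, and every library came from transfected cells, so the receptor added was a mouse protein in human cells. Antibodies to PXR, to HA and a control IgG are named, without saying which served for which library. The study deposited 1 peak list under the name of the immunoprecipitate, and no label says which replicates it holds. No value of a single library was analysed, so no result below has a spread between replicates and none carries a p-value. Intervals are exact Poisson intervals for reads, Wilson intervals for shares and order-statistic intervals for medians, all at 95%. The Poisson intervals cover counting error only, and PCR copies of a molecule are counted as reads like any other. The Wilson and order-statistic intervals treat genes or peaks as independent draws, and they hold no error between libraries.

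The proteasome is the large protease that degrades proteins tagged with ubiquitin. Its core particle is a stack of rings of alpha subunits (PSMA genes), which form the gate, and beta subunits (PSMB genes), some of which cut peptide bonds. The regulatory particle binds to the ends of the core: its ATPases (PSMC genes) unfold the substrate, and its other subunits (PSMD genes) recognise ubiquitin, remove it or hold the particle together. PSME genes code for alternative activators, PSMF1 for a protein known as an inhibitor of the core, and PSMG genes for chaperones that assemble the alpha ring. PXR belongs to the nuclear receptors and switches on genes of drug metabolism when foreign compounds or bile acids bind it.

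For each peak the number of reads under its summit was recovered from the deposited fold and −log10 p, which are the authors' values. The fold divides the summit reads by a background, after 1 is added to both. The background was the number of reads in the 10 kb around the peak, scaled to 200 bases, in 92 of the 93 peaks. No label says whether those are reads of the immunoprecipitate or of the input. The fold is therefore read here as the summit against its surroundings, and not as enrichment over the input. The background count was at least as large as the summit's reads in all 92, and in all 20365 peaks of the list with such a background, as a count that includes the summit's own reads must be. Colon epithelial markers had a peak in 9 of 10 genes, lacking one only in KRT20, beside 41.6% of all coding genes. Of 6 genes taken as markers of other cell types (ALB, APOA1, PTPRC, CD3E, COL1A1 and PECAM1), none had a peak (Wilson interval up to 39.0%). The list does not hold expression values, so abundance of an RNA and its binding by PXR cannot be told apart for any gene below.

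Most subunit genes were in the list, at moderate depth. Of the 48 genes, 38 held at least 1 peak (79.2%, Wilson interval 65.7 to 88.3%), beside 41.6% of all coding genes. By group these were 12 of 19 core genes, 18 of 20 regulatory genes, 3 of 4 activator genes, PSMF1, and all 4 PSMG chaperone genes. Of the 38 genes, 7 held 1 peak, 17 held 2, 7 held 3, 4 held 4 and 3 held 5. The 5-peak genes were PSMB6, PSMC4 and PSMF1. The median of the deepest summit per gene was 26.0 reads (order-statistic interval 22.0 to 31.0), beside 22.0 reads over all 8329 coding genes with a peak. A deepest summit of 30 reads or more was found in 18 of the 38 genes (47.4%, Wilson interval 32.5 to 62.7%), beside 34.0% of coding genes with a peak. The median fold per peak was 7.08 in the subunit genes and 5.92 in all coding genes. Widths ran from 200 to 787 bases, with a median of 251 bases.

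**Figure D1:**
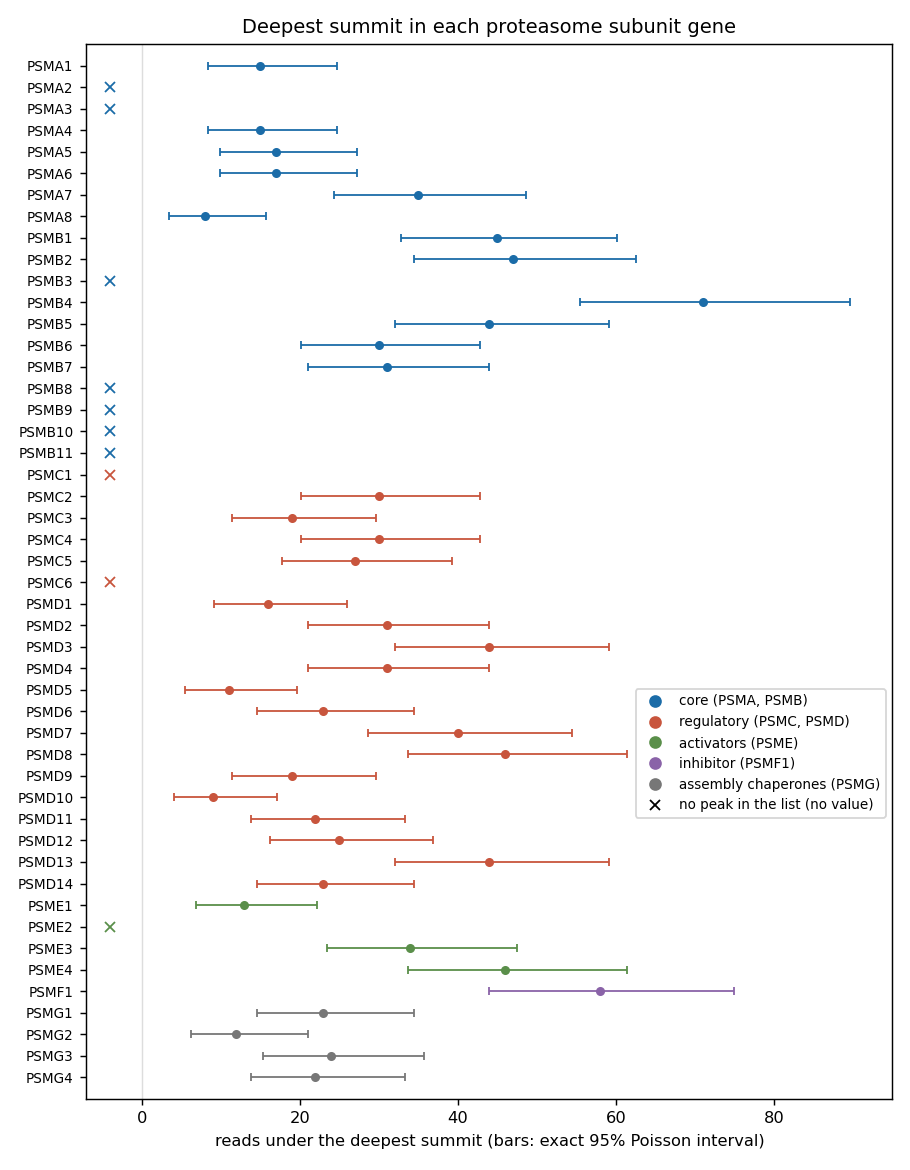
Reads under the deepest summit of each of the 48 subunit genes, with exact 95% Poisson intervals, and crosses for the 10 genes with no peak in the list. PSMB4 has the deepest summit at 71 reads and PSMF1 follows at 58, while every PSMA gene other than PSMA7 with a peak lies at 17 reads or fewer.

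The alpha subunits of the core were mostly shallow. PSMA7, on chromosome 20 from 62136733 to 62143394, held minus-strand peaks of 35 reads (24.4 to 48.7) and 33 reads (22.7 to 46.3). The deeper one lay at 62143076 to 62143343, 184 bases from the nearer end of the span by its centre, with a fold of 8.04. PSMA5 reached 17 reads (fold 7.69) and PSMA6 also 17 (fold 7.20), while PSMA1 and PSMA4 reached 15 each. These 4 genes lay below the PSMA7 value, with intervals that overlap its interval. PSMA8, the alpha subunit known from testis, held 1 peak of 8 reads, on the minus strand while the gene is on the plus strand, where the pseudogene DHFRP1 also lies. No peak centre lay in PSMA2 or PSMA3.

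The beta subunits held the deepest summits of the core. PSMB4, a non-catalytic beta subunit on chromosome 1 from 151399573 to 151401937, had plus-strand summits of 71 reads (55.5 to 89.6), 45 reads (32.8 to 60.2) and 23 reads within its 2365 bases. Its first peak (151399598 to 151399859, fold 14.2) ranked 692 by depth among the 8329 coding genes with a peak. The intervals of 8 other subunit genes overlap that of PSMB4. PSMB2, a non-catalytic subunit on the minus strand of chromosome 1, reached 47 reads (34.5 to 62.5) at 35641187 to 35641472 with a fold of 17.6, the highest fold of the core. Its other peak held 18 reads. PSMB1, also non-catalytic, on chromosome 6, held 4 minus-strand peaks of 45, 42, 18 and 17 reads. The 2 deep ones lay at opposite ends of the gene, at 170552886 to 170553247 (fold 10.6) and 170535061 to 170535379 (fold 15.8), and the shallow ones between them.

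All 3 catalytic beta subunits of the standard proteasome were in the list. PSMB5, which carries the chymotrypsin-like activity targeted by bortezomib, lies on chromosome 14 and held minus-strand summits of 44 reads (32.0 to 59.1), 36 reads (25.2 to 49.8) and 32 reads (21.9 to 45.2). The deepest, at 23034563 to 23034823, had a fold of 12.9. PSMB7, the trypsin-like subunit on chromosome 9, reached 31 reads (21.1 to 44.0) at 124412213 to 124412486, with a fold of 12.1, and had 25 reads at its other peak. PSMB6, the caspase-like subunit on chromosome 17, held 5 plus-strand peaks of 30, 18, 17, 24 and 25 reads over 2332 bases, in genome order. All 5 shared the same 130 reads in 10 kb, so their folds of 5.00 to 8.61 differ only by the reads at the summit. None of the 3 immunoproteasome subunits, PSMB8, PSMB9 and PSMB10, which replace the catalytic subunits after interferon, had a peak (0 of 3, Wilson interval up to 56.1%). PSMB11, known from thymus, and PSMB3 had none either. Among genes with a peak, the deepest summits ran from 30 to 71 reads in the 6 PSMB genes (median 44.5) and from 8 to 35 reads in the 6 PSMA genes (median 16).

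Of the 6 ATPase genes of the regulatory particle, 4 held a peak. PSMC4, on chromosome 19, held 5 plus-strand peaks of 25, 30, 20, 26 and 18 reads in genome order. The deepest, at 39974328 to 39974942, was 615 bases wide with a fold of 8.12. PSMC2, on chromosome 7, reached 30 reads (20.2 to 42.8) at 103348640 to 103348854 with a fold of 11, where the ribosomal pseudogene RPS29P16 also lies. PSMC5, an ATPase that is also known as SUG1 and TRIP1 and as a partner of nuclear receptors, held summits of 27 and 14 reads (folds 6.90 and 3.69). The second of these folds was the lowest of all 93 peaks. PSMC3 reached 19 reads. No peak centre lay in PSMC1 or PSMC6.

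All 14 non-ATPase regulatory genes held a peak (Wilson interval 78.5 to 100%). PSMD8, a lid subunit on chromosome 19, held 4 plus-strand peaks of 42, 26, 46 and 44 reads from start to end. The deepest, of 46 reads (33.7 to 61.4), lay in the middle of the gene at 38379295 to 38379516 with a fold of 7.48, where the 10 kb held 264 reads. PSMD3, a lid subunit on chromosome 17, held 44 reads (32.0 to 59.1) at 39980874 to 39981322 with a fold of 14.7, then 22, 27 and 42 reads. PSMD13, a lid subunit on chromosome 11, held a single peak of 44 reads (32.0 to 59.1) at its downstream end, at 252574 to 253057, with a fold of 11.5. PSMD7, the partner of the deubiquitinase in the lid, on chromosome 16, had the highest fold of the regulatory genes, 15.2 from 40 reads (28.6 to 54.5) at 74296870 to 74297143, and a second peak of 28 reads.

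Among the PSMD genes whose products bind or remove ubiquitin, PSMD2 and PSMD4 reached 31 reads and PSMD14 reached 23. PSMD4, a ubiquitin receptor on chromosome 1, held plus-strand peaks of 31, 17 and 30 reads, the deepest at 151262196 to 151262399 with a fold of 7.44 and the last with 9.69. PSMD2, the scaffold that docks ubiquitin shuttle proteins, on chromosome 3, held 31, 28 and 23 reads, and its deepest peak at 184299284 to 184299511 had a fold of 7.51. PSMD14, the deubiquitinase, spans 103293 bases of chromosome 2 and held 1 peak of 23 reads at 161308493 to 161308769 with a fold of 12.4. PSMD1, a large scaffold gene of 115961 bases, held 4 peaks of 8 to 16 reads. PSMD5, PSMD9 and PSMD10, chaperones of the assembling base, reached 11, 19 and 9 reads. PSMD6, PSMD11 and PSMD12 reached 23, 22 and 25 reads.

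Core and regulatory genes with a peak had overlapping intervals in depth and in fold. These intervals run over genes or peaks, so their overlap does not decide whether the groups differ. A peak was present in 63.2% of core genes (Wilson interval 41.0 to 80.9%) and in 90.0% of regulatory genes (69.9 to 97.2%), and the intervals overlap. Without the immunoproteasome and tissue-restricted subunits, the core share was 11 of 14 genes (78.6%, 52.4 to 92.4%). Core genes held 29 peaks and regulatory genes 44. The median of the deepest summit was 30.5 reads (order-statistic interval 15.0 to 45.0) over 12 core genes and 26.0 reads (19.0 to 31.0) over 18 regulatory genes. This difference of 4.50 reads became 8 reads with only peaks in 1 gene. The regulatory group includes the assembly chaperones PSMD5, PSMD9 and PSMD10, whose 11, 19 and 9 reads all lie below its median. The difference in depth thus depends on counting these chaperones, and it was not computed without them. The median fold per peak was 7.20 (6.46 to 8.92) in core genes and 7.46 (6.70 to 8.09) in regulatory genes, a difference of -0.263 that changed sign under 3 of 7 alternatives. A summit of 30 reads or more was found in 7 of 12 core genes (32.0 to 80.7%) and in 8 of 18 regulatory genes (24.6 to 66.3%). No test was made, since genes are not replicates.

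Among the activators, PSME4, the large nuclear activator PA200, reached 46 reads (33.7 to 61.4) at 53970450 to 53970964 on chromosome 2, with a fold of 11.9. PSME3, the nuclear PA28 gamma, held 34, 32 and 21 reads, and its deepest peak had a fold of 13.8. PSME1, whose product forms the interferon-induced activator together with that of PSME2, held 13 and 12 reads. PSME2 held no peak centre, but a minus-strand peak of 24 reads (15.4 to 35.7) lay in no gene, with its centre 238 bases upstream of the PSME2 span, on the strand of PSME2. PSMF1, on chromosome 20, had the highest fold of all 93 peaks, 20.1, from 58 reads (44.0 to 75.0) at 1118662 to 1118997. That summit had 58 reads where the background count over 10 kb was 97, a share of 59.8%. The other PSMF1 peaks held 22, 13, 25 and 30 reads. The alpha-ring chaperone genes had deepest summits of 24 reads in PSMG3, 23 in PSMG1, 22 in PSMG4 and 12 in PSMG2. The PSMG3 peak, on the minus strand of chromosome 7 at 1569099 to 1569885, was the widest of the 93 at 787 bases and had a fold of 7.67.

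The caller's significance is tied to fold and depth by construction, since the reads were recovered from the deposited fold and p. The values are given as a description. In the authors' deposited table the deepest peaks of PSMF1 and PSMB4 had a −log10 q of 59.4 and 57.1, and that of PSMB2 had 46.0. Among regulatory genes the authors' deposited table gave 38.5 for PSMD3, 36.5 for PSMD7 and 32.2 for PSMD13, against 23.7 for PSMD8, which had more reads but also more reads around it. The deepest peaks of PSMD2 and PSMD4 had 16.6 and 16.4 and that of PSMG3 had 13.5 in the authors' deposited table, all above the median of 9.14 over the main chromosomes.

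Many peaks sat just downstream of a gene start. The RefSeq promoter table lists strand and starts for 42 of the 48 genes. It was not matched for PSMA7, PSMB1, PSMB6, PSMB7, PSMD4 and PSMG3, which are left out of what follows. Of the 72 peaks on the strand of such a gene, 25 had their summit up to 500 bases downstream of a listed start (34.7%, Wilson interval 24.8 to 46.2%), beside 24.8% of such peaks in all coding genes. Those 500 bases are mostly a larger part of the subunit genes, whose median length was 13552 bases against 24115 in all coding genes. By share of the span, the fifth at the upstream end held 37.5% of the 72 peaks (Wilson interval 27.2 to 49.0%), beside 33.3%. The part of gene length in the start-side share was not tested. The 25 start-side summits lay 85 to 399 bases from the start, with a median of 196 bases. The median in all coding genes was 221 bases. If reads were extended to 200 bases, the narrowest width in the list, a summit lies downstream of the read starts. The start-side peaks had a median of 23 reads and a median fold of 9.13 (7.51 to 12.4). The 35 peaks near neither end had 22.0 reads and a fold of 6.34 (5.81 to 7.39). In all coding genes the same folds were 7.69 and 5.45, from medians of 20.0 and 22.0 reads. With reads so alike, the folds differ mainly by the background over 10 kb. At the upstream end of a gene, part of those 10 kb lies outside the gene. How much this adds to the fold was not tested.

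**Figure D2:**
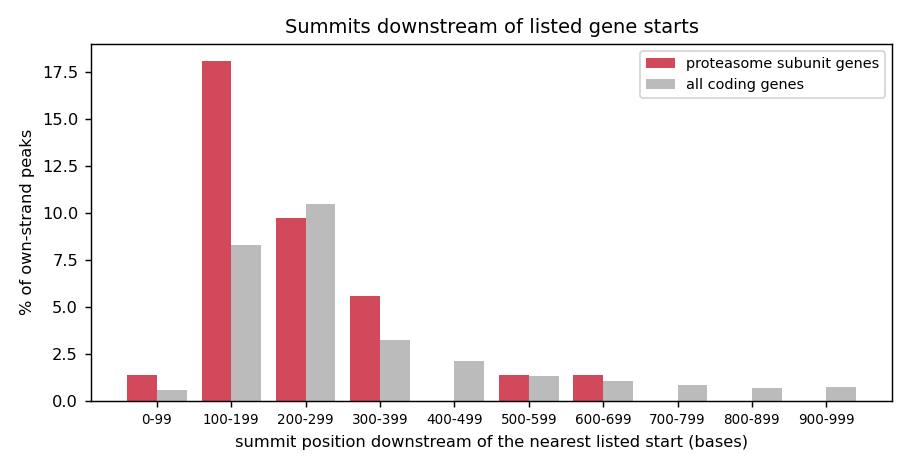
Share of own-strand peaks, in percent, by the distance of the summit downstream of the nearest listed start, in bins of 100 bases, for proteasome subunit genes (72 peaks) and all coding genes (15817 peaks). In the subunit genes 13 summits lie 100 to 199 bases from a start (18.1%), beside 8.29% in all coding genes, and 7 lie 200 to 299 bases from a start (9.72%), beside 10.5%.

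By gene, 25 of the 31 with an own-strand peak had a start-side peak (80.6%), beside 58.5% of coding genes with an own-strand peak. In 18 of the 31 the start-side peak was also the deepest (58.1%), beside 38.9%. Both shares rest on the same 500 bases, and the subunit genes have the shorter median length. All 7 core genes with an own-strand peak and a listed start had a start-side peak. Of the regulatory genes, 12 of 13 PSMD genes had such a peak, PSMD13 being the exception, and none of the 4 PSMC genes did. The first PSMC summits lay 628 bases from the start in PSMC3, 1065 in PSMC4, 1098 in PSMC2 and 2722 in PSMC5. In several genes the nearest start was one inside the span, downstream of its upstream end. The PSMF1 peak lay 9.44% along the span but 237 bases from a second listed start, and the PSMA1 peak of 9 reads lay 89.0% along the span but 165 bases from the listed start. The PSMA6, PSMG2 and PSMG4 start-side peaks lay likewise at 35.9%, 66.3% and 35.7% of the span.

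The sequence around the start is shown for the 4 genes with the deepest start-side summits, since their peaks begin close after it. Each line runs from 60 bases before the listed start to 30 bases from it on, 5′ to 3′ on the strand of the gene, and capitals mark the bases from the start on (RefSeq, GRCh38.p14). The stretches are chr1:151399513-151399602 plus for PSMB4, chr20:1118542-1118631 plus for PSMF1, chr1:35641497-35641586 minus for PSMB2 and chr2:53970964-53971053 minus for PSME4.
PSMB4: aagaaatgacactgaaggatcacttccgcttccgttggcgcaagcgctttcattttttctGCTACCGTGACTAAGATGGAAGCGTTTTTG
PSMF1: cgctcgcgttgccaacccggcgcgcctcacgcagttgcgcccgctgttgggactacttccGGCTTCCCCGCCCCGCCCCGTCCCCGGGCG
PSMB2: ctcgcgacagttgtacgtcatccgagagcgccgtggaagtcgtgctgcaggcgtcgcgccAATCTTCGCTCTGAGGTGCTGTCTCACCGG
PSME4: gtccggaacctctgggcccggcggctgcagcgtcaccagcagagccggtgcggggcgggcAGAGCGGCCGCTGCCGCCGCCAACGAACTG
The PSMB4 summit lay 155 bases from its start, the PSMF1 summit 237, the PSMB2 summit 200 and the PSME4 summit 262.

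Peaks at the downstream ends depended on how the end was drawn. Of the 72 own-strand peaks, 12 had their centre within 500 bases of the downstream end (16.7%, Wilson interval 9.80 to 26.9%), beside 9.75% in all coding genes. The fifth of the span at the downstream end held 25 peaks (34.7%, 24.8 to 46.2%), beside 33.6%, and the fifth at the upstream end held 27 (37.5%, 27.2 to 49.0%), beside 33.3%. The downstream 10% of the span held 16 peaks (22.2%), beside 24.9%. The share thus lay above all coding genes by distance in bases, in genes of a median length of 13552 bases against 24115, and near or below them by share of the span. Of the 31 genes with an own-strand peak, 7 had one at both ends (22.6%, Wilson interval 11.4 to 39.8%), beside 11.9% of such coding genes. The start and end summits held 44 and 36 reads in PSMB5, 44 and 42 in PSMD3, 42 and 44 in PSMD8, 31 and 23 in PSMD2, 9 and 15 in PSMA1, 9 and 8 in PSMD10, and 12 and 12 in PSMG2. In each of the 7 the intervals of both summits overlap. PSMB1, whose strand was not listed, had 45 and 42 reads at its 2 span ends. Exons were not annotated here, so a peak inside a span is not assigned to an exon, an intron or an untranslated region.

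**Figure D3:**
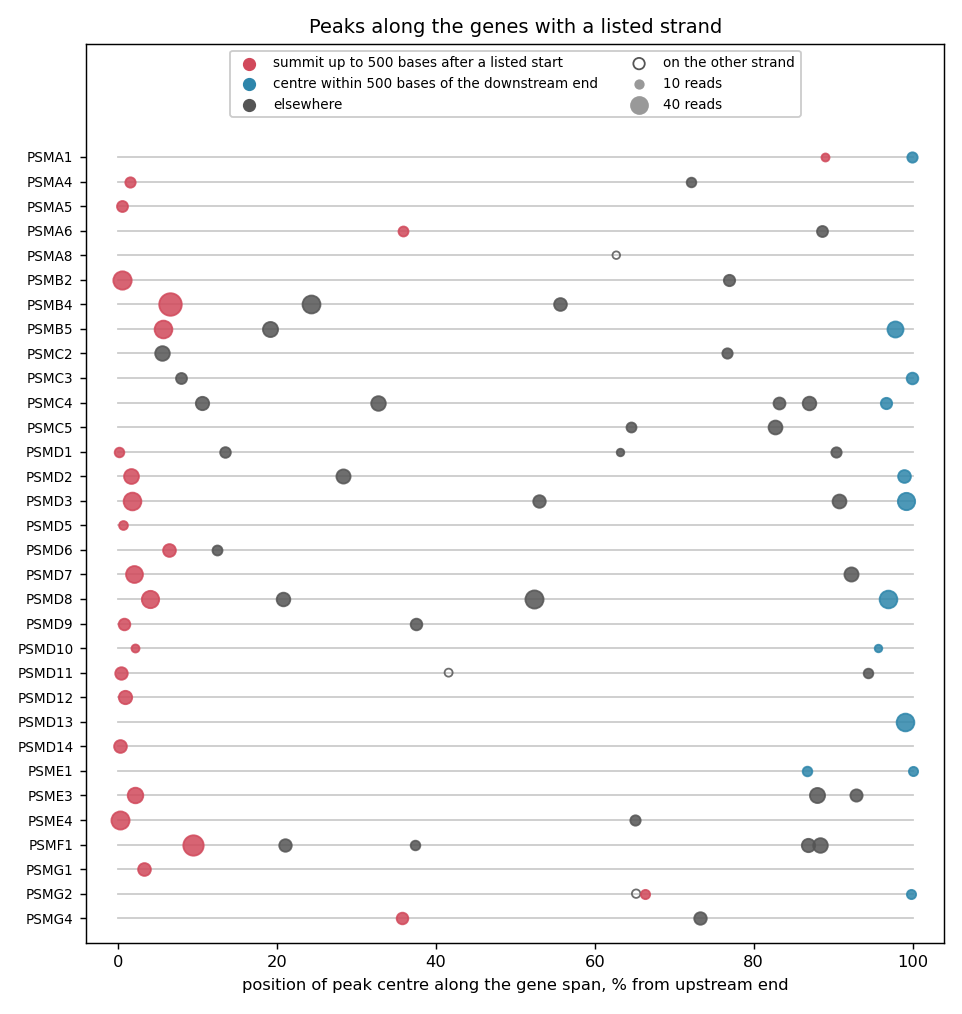
Position of each peak centre along the gene span, in percent from the upstream end, for the 32 genes with a listed strand and a peak, with point area in proportion to reads. Red points (25 start-side peaks) stand mostly at the left edge, 12 blue points (downstream end) at the right, and 3 open circles mark peaks on the other strand.

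Nearly all peaks were on the strand of the gene. Where the strand was listed, 72 of 75 peaks were on it (96.0%), beside 94.3% in all coding genes. The exceptions were shallow: 8 reads in PSMA8, 9 in PSMD11 and 10 in PSMG2. The PSMG2 one lay where the gene CEP76 overlaps, and the PSMD11 one lay in no other gene. In the 6 genes without a listed strand, each gene had all its peaks on a single strand. Of the 93 peaks, 83 lay in no other gene of the table. The others included both PSMA6 peaks, which also lie in the readthrough gene PRORP-PSMA6, a PSMC2 peak in SLC26A5 and a PSMD10 peak in ATG4A.

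Gene length did not order the genes by peaks. Over the 38 genes with a peak, Spearman's rho was -0.15 between length and number of peaks and -0.17 between length and deepest summit, as a description with each gene as a point. PSMB6 had 21.4 peaks per 10 kb and PSMB4 12.7, against 0.0968 in PSMD14 and 0.144 in PSMA1.

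**Figure D4:**
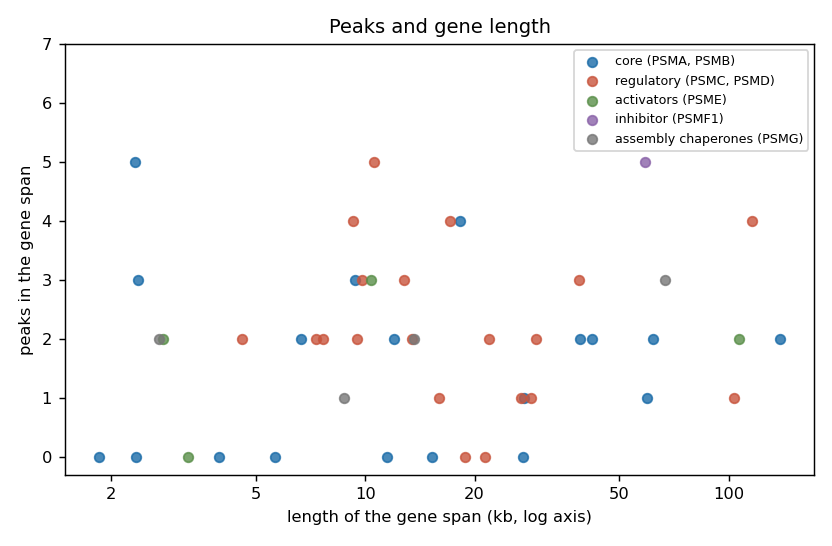
Number of peaks in the gene span against the length of the span (kb, log axis), a point for each of the 48 genes, coloured by group. PSMB6, at 2332 bases, and PSMF1, at 58984 bases, both hold 5 peaks, and genes with no peak occur from 1849 to 27162 bases.

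The 10 genes without a peak were PSMA2, PSMA3, PSMB3, PSMB8, PSMB9, PSMB10, PSMB11, PSMC1, PSMC6 and PSME2. Leaving aside the immunoproteasome and tissue-restricted genes, 6 genes remained, and each of the 6 has a pseudogene of its own name in the table, 28 in all, of which PSMC1 has 13 and PSME2 has 6. Of the 37 other such genes with a peak, 15 have a pseudogene, 24 in all and at most 4 each. A read from a coding gene and from its near-identical pseudogene cannot always be told apart, and no label says how the authors treated such reads. The part of pseudogenes in the missing peaks was not tested. Pseudogenes themselves had a peak in 8 of 52 (15.4%, Wilson interval 8.01 to 27.5%), beside 5.01% of all pseudogenes of the table. Of these, 4 belong to genes without a peak, PSMC1P1 with 10 reads, PSMC6P1 with 8, PSMA2P3 with 9 and 7, and PSME2P2 with 11. The other 4 belong to genes with a peak. They were PSMA6P1 with 21 reads, PSMD2P1 with 14, 13 and 15, PSMC3P1 with 10 and 13, and PSMA1P1 with 10. The PSMA6P1 peak was placed on chromosome Y. Which copy the reads of these pseudogene peaks came from is uncertain.

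Nearly all of a chosen set of genes that work with the proteasome held a peak. The set was chosen with earlier results of these data known, so its share is a description only. The 20 genes taken were shuttle factors, proteasome-bound enzymes, assembly factors, regulators of proteasome gene expression, and ADRM1 and SEM1, which code for subunits of the regulatory particle under symbols outside the PSM series. ADRM1, a ubiquitin receptor, reached 42 reads (30.3 to 56.8) and SEM1 reached 21 (13.0 to 32.1). A peak was present in 19 (95%, Wilson interval 76.4 to 99.1%), beside the same 41.6% of coding genes, and PAAF1, an assembly factor of the regulatory particle, was the exception. The deepest were NFE2L1, the transcription factor that raises proteasome gene expression when the proteasome fails, with 75 reads (59.0 to 94.0, fold 5.12), and RAD23B, a ubiquitin shuttle, with 74 reads (58.1 to 92.9, fold 16.2). NFE2L2, the related oxidative stress factor, had 65 reads (50.2 to 82.8) and UBE3C, a ubiquitin ligase at the proteasome, had 64 (49.3 to 81.7). The RAD23B, NFE2L2 and UBE3C summits lay 202, 257 and 243 bases from a listed start, and the NFE2L1 summit lay 10274 bases from its start. The median of the deepest summit was 38.0 reads (17.0 to 57.0) over these 19 genes and 26.0 reads over the PSM genes, with intervals that overlap. Of their 42 own-strand peaks 15 were near a start (35.7%). Near the downstream end lay 1 (2.38%, 0.422 to 12.3%), beside 12 of 72 in the PSM genes (9.80 to 26.9%). These genes are longer, with a median of 44604 bases against 13552 in the PSM genes and 24115 in all coding genes. The part of gene length in their share with a peak was not tested. The fifth of the span at the downstream end held 28.6% of their own-strand peaks, beside 34.7% in the PSM genes.

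The promoters of proteasome genes are known to carry antioxidant response elements, through which NFE2L1 acts. The core of this element, TGACNNNGC on either strand, was found in the 300 bases from 250 before to 50 after a listed start in 15 of the 42 genes (35.7%), beside 17.9% of 15843 coding genes. By group, it was found in 3 of 15 core and 7 of 19 regulatory genes. It was found in 9 of the 25 genes with a start-side peak and in 6 of the 17 without. The ETS site CCGGAAG was found in 15 of 42 genes, beside 16.5%, the CCAAT box in 20, beside 42.1%, and TATAAA in 5, beside 12.4%. Motifs were counted on both strands, and a match is a description, not a site. The match is shown for the 4 genes with the deepest start-side summits among those that hold it, 5′ to 3′ on the strand of the gene, with the matched bases in capitals. The stretches are chr2:53970994-53971052 minus for PSME4, chr17:39980745-39980803 plus for PSMD3, chr17:67366709-67366767 minus for PSMD12 and chr21:39183601-39183659 minus for PSMG1 (RefSeq, GRCh38.p14).
PSME4: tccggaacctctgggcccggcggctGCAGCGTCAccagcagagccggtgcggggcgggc
PSMD3: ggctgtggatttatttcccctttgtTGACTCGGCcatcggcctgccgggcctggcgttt
PSMD12: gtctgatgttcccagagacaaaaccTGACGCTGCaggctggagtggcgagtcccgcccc
PSMG1: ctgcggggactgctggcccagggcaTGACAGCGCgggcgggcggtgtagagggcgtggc
The PSME4 match reads on the opposite strand. The matches begin 34 bases before the start in PSME4, 37 in PSMD3, 165 in PSMD12 and 183 in PSMG1.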

How the data were processed

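The data were 1 deposited peak list of the PXR immunoprecipitate. Per the submitters' processing notes, cutadapt, BWA, MACS2 and the hg38 build were used, with no versions or settings named. Per the deposited peak names, the authors called each strand apart. The deposited fold (a ratio), −log10 p and −log10 q are the caller's values, with a lowest −log10 q of 1.31 in the authors' deposited table. The deposited score is the integer part of 10 times −log10 q, and the other deposited column is the summit's distance from the peak start.

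Reads k at a summit and the background b were those that give the deposited fold, taken as (k + 1) over (b + 1), and the deposited p, taken as the Poisson chance of exceeding k when b are due. This worked in 21028 of 21031 peaks, with a median of 21 reads, and was tested on simulated peaks. Peaks were placed by the RefSeq table of GRCh38.p14, which shares coordinates with hg38, and starts and strands came from the RefSeq promoter table. The members, the lists and the rule for named genes were chosen with earlier results of these data known. By that rule all 48 genes are named, and fuller values are given for the 6 core and 6 regulatory genes with the deepest summits and for the deepest PSME, PSMF and PSMG genes. The start distances and motifs were chosen after seeing the peaks. The input was not analysed here, and no test was made.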

Additional observations from a re-analysis of the deposited data

How the results depend on the processing

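Depth limits the single values: 6 of the 93 peaks held fewer than 10 reads, and neighbouring genes in the order of depth mostly have overlapping intervals. Of 69 values under alternatives, 61 kept their sign and stayed within 1.5 times the reported count or difference, or within the reported interval of a share. The genes with a peak numbered 31 to 38 under all alternatives, with 9 to 12 core and 16 to 18 regulatory genes. When peaks below the median −log10 q of the authors' deposited table (9.14) were dropped, 31 of the 48 genes kept a peak. With the same cut, 25.9% of all coding genes had a peak. The 7 genes lost were PSMA1, PSMA4, PSMA8, PSMD5, PSMD10, PSME1 and PSMG4. That setting left 18 peaks in core genes and turned the difference in median fold, core minus regulatory, to 0.672. The difference was also positive with only peaks in 1 gene (0.208) and without peaks at most 2 bases wider than 200 (0.0322). It was -0.883 by the highest fold per gene, and the cause was not tested. The depth difference of 4.50 reads was 3 to 8 reads, the highest with only peaks in 1 gene, and on the −log10 q scale of the authors' deposited table it was 2.23. No alternative left out the chaperones PSMD5, PSMD9 and PSMD10, so this range does not cover their part in the difference. The downstream 10% of the gene held 22.2% of own-strand peaks, since it is a smaller region, beside 24.9% in all coding genes. The share of start-side peaks ran from 27.8 to 40%, and these alternatives were chosen after seeing the data. No paired analysis was possible because the peak list holds no values of single libraries.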
